A study of Mus musculus with 36 samples.

Results

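CD8+ T cells sorted from WT melanomas were compared with whole WT melanomas. The comparison held 4 WT libraries labelled as sorted CD8+ T cells and 6 WT libraries labelled as bulk melanoma tissue, 10 of the 36 libraries of the series. Groups were taken from the sample labels alone. All of these mice carried the Braf CA and Tyr-CreERT2 alleles, among others, on a mixed 129S, B6 and FVB background, and tumours were induced with topical 4-hydroxytamoxifen and collected 50 days after induction. Tyr-CreERT2 puts the recombinase under a melanocyte promoter, and the polyclonal tumours arose in skin that kept its own epidermis, muscle, vessels and immune cells. The WT mice were intact for the macroH2A genes H2afy and H2afy2, which the dKO mice of the study lack from birth. Mice used for the CD8+ sort were induced at 9 weeks of age (2 female and 2 male), and the age of the mice behind the bulk tumours (4 female and 2 male) was not stated in these sources.

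The groups differed in more than their cells. Bulk tumours were snap frozen and 1000 ng of RNA went into directional poly-A libraries in 3 batches, whereas the sorted cells came from tumours that had been digested with warm enzymes and spun through Percoll, and 5 ng of their RNA went into a low-input kit. Tissue, digestion, RNA input, kit and batch therefore cannot be told apart in any value below. Counts assigned to genes ran from 18100721 to 28689963 per sorted library and from 22245159 to 80382266 per bulk library, highest in the 2 libraries of bulk batch 2. Levels are given as CPM (counts per library size in its usual unit, after trimmed-mean scaling), in the order of sorted replicates 1 to 4 and as the range and median over the 6 bulk tumours. In bulk tissue, fewer cells of a type and less RNA per cell cannot be told apart.

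A CD8+ T cell recognises peptides on MHC class I through a T cell receptor, which signals through the CD3 chains with CD8 as co-receptor. Once activated in a tumour it makes granzymes, perforin and interferon-gamma, and with lasting antigen it also carries inhibitory receptors such as PD-1. Some of these cells stay in skin as resident memory cells, marked by CD69 and CD103 and low in the receptors that lead back to blood and lymph. In a whole tumour their RNA is mixed with that of all other cells, so a low bulk value of a T cell gene can stand for a few cells with a high level.

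The sorted libraries carried the RNA that their label names. Cd3e (chr9:44998740-45009627), a signalling chain of the T cell receptor, read 970.0, 627, 969.6 and 896 CPM in the sorted libraries and from 1.92 to 6.16 (median 2.34) CPM in the bulk tumours. Cd8a (chr6:71373427-71379173) read 617, 485, 925 and 800.3 CPM after sorting and from 0.658 to 3.28 (median 2.65) CPM in bulk. For Cd8b1 (chr6:71322788-71337494), the second co-receptor chain, these values were 629, 457, 743 and 583 and from 0.384 to 1.56 (median 0.807) CPM. No sorted library overlapped a bulk tumour for any of these chains, and the bulk mean was 0.373%, 0.331% and 0.151% of the sorted mean. Cd4, which marks helper T cells and some macrophages, was low in both groups at 11.9, 12.4, 0 and 6.98 CPM after sorting and from 2.52 to 6.29 (median 4.03) CPM in bulk (log2 fold change 0.80 ± 0.92 (SE), adjusted p = 0.442; without sorted replicate 3, 1.25, adjusted p = 0.0115). The ratio of Cd4 to Cd8a counts was 0.0193, 0.0255, 0 and 0.00872 in the sorted libraries and 0.768 to 4.42 (median 2.01) in the bulk tumours (exact permutation test over 210 divisions, 2-sided, p = 0.00476, the smallest these divisions allow; 0.00714 after adjustment over 3 ratios). Because the cells were sorted as CD8+ T cells, a lower ratio follows from the sort itself. The ratio describes the sort, and its p-value is no independent support.

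**Figure D1:**
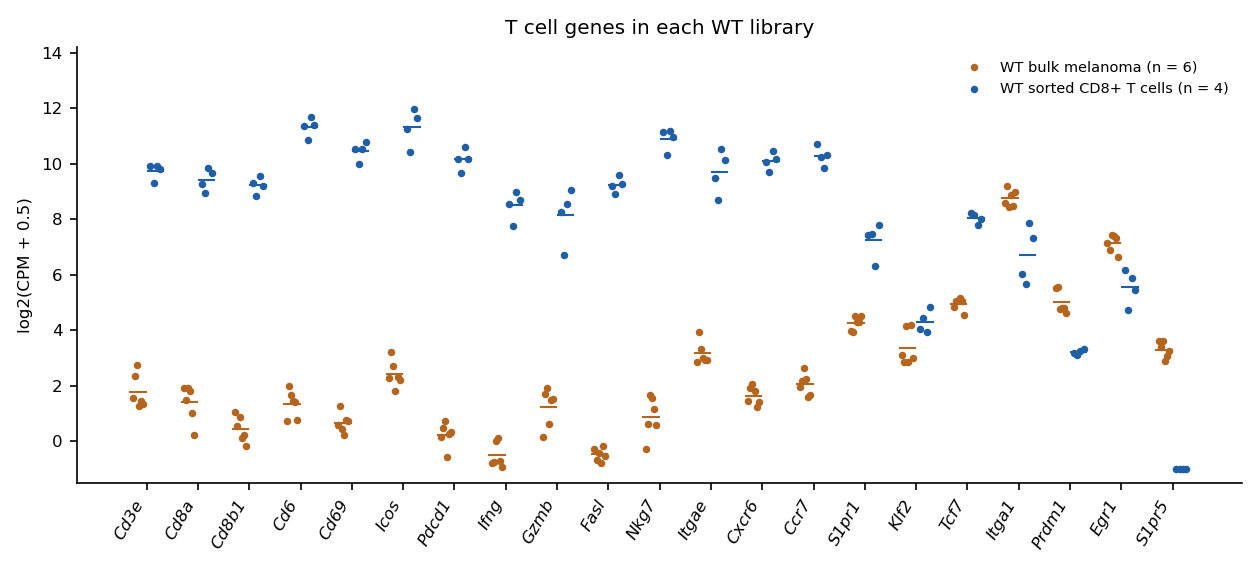
Level of 21 T cell genes in each WT library as log2(CPM + 0.5) on the vertical axis, with bulk melanomas in brown (n = 6), sorted CD8+ T cells in blue (n = 4) and horizontal bars at the group means. Receptor, cytotoxic and checkpoint genes stand in separate bands for the 2 groups, Klf2 overlaps, and Itga1, Prdm1, Egr1 and S1pr5 are lower in the sorted cells.

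Of 18865 genes tested, 5202 were higher in the sorted cells (27.6%) and 8126 lower (43.1%), at an adjusted p under 0.05 and a log2 fold change beyond 0.75. Many changes were large, with 1906 genes higher by over 3 on the log2 scale (10.1%) and 4975 lower by that much (26.4%). The median gene was lower by 0.59 on this scale. Scaling by library totals alone moved the median of all genes by -0.23 and upper quartile scaling by 0.24, so fold changes below about that size have no firm direction. Single genes could move further, so larger changes are not all firm either. With an offset for transcript length, Thy1, called higher in the main fit, read -0.44. Itga4, negative in the main fit, read 0.84 with that offset. Each list of T cell genes is read against the shares called and the median of all genes.

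Genes of the T cell receptor and its signalling machinery were the most enriched group. In all, 23 of 24 identity genes were higher in the sorted cells, 22 of them by over 3 on the log2 scale, and the list's median log2 fold change was 8.39. The median member's bulk level was 0.299% of its sorted level. Cd6, a scavenger-receptor family protein of T cells, read 2601, 1829, 3235 and 2656 CPM after sorting and from 1.16 to 3.43 (median 2.18) CPM in bulk (log2 fold change 10.16 ± 0.40 (SE), adjusted p = 4.42e-08). Themis, a signalling protein needed for thymocyte selection, read 335, 248, 422 and 325 and from 0.0417 to 0.679 (median 0.448) CPM (log2 fold change 9.52 ± 0.49 (SE), adjusted p = 2.13e-07). Each of these stood apart from the bulk range in all 4 sorted libraries. At the other end, Thy1 read 673, 494, 891 and 644 CPM in sorted cells and from 298 to 399.6 (median 327) CPM in bulk (log2 fold change 0.96 ± 0.14 (SE), adjusted p = 0.000161; -0.44 with an offset for transcript length), and Bcl11b read 43.9, 42.1, 63.5 and 45.1 and from 50.2 to 83.2 (median 67.1) CPM (log2 fold change -0.48 ± 0.20 (SE), adjusted p = 0.0504). Thy1 is also a surface protein of fibroblasts and neurons, and Bcl11b is also a keratinocyte transcription factor, so neither is particular to T cells in skin. Per transcript length, Cd8b1 stood at 486 ± 76.04 TPM (transcript counts per length, scaled to the library; mean ± SD, n = 4) and Cd8a at 315 ± 68.4 TPM in the sorted cells, against 0.885 ± 0.411 and 1.16 ± 0.503 TPM (n = 6) in bulk.

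The balance of the CD8 chains differed between the groups. The ratio of Cd8b1 to Cd8a counts was 1.02, 0.942, 0.803 and 0.729 in the sorted libraries and 0.194 to 0.583 (median 0.424) in bulk (exact permutation test, 2-sided, p = 0.00476, 0.00714 after adjustment). As background, conventional CD8+ T cells carry the alpha and beta chains as a pair, while some dendritic cells and gut or skin lymphocytes carry the alpha chain alone. Counts of both CD8 chains against the summed CD3 chains did not separate the groups, at 0.483, 0.587, 0.639 and 0.615 after sorting and 0.255 to 0.945 (median 0.425) in bulk (exact permutation p = 0.524, adjusted 0.524). Within the bulk batches the ratio was 0.945 and 0.827 in batch 1, 0.349 and 0.422 in batch 2 and 0.429 and 0.255 in batch 3, so the sorted libraries lay below batch 1 and above batches 2 and 3.

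Activation genes were mostly higher in the sorted cells, with a few exceptions among early response genes. In the fit, 22 of 25 activation genes were higher and 2 lower, with a median log2 fold change of 4.27. Cd69 (chr6:129267325-129275436), an early activation antigen that also holds cells in tissue, read 1468, 1005, 1465 and 1776 CPM in sorted cells and from 0.668 to 1.88 (median 1.08) CPM in bulk (log2 fold change 10.36 ± 0.36 (SE), adjusted p = 2.73e-08). Icos, a costimulatory receptor induced after activation, read 2433, 1378, 3951 and 3202 and from 3.004 to 8.71 (median 4.35) CPM (log2 fold change 8.97 ± 0.44 (SE), adjusted p = 1.42e-07). Tnfrsf9, the costimulatory receptor 4-1BB, read 501, 316, 649 and 621 and from 0.800 to 1.62 (median 1.03) CPM (log2 fold change 8.79 ± 0.31 (SE), adjusted p = 2.96e-08). The bulk level of these receptors was at most 0.214% of the sorted level.

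Early response genes split. Nr4a1, an orphan nuclear receptor induced within minutes of receptor signalling, read 1588, 1827, 2108 and 1627 CPM in the sorted cells and from 65.5 to 158 (median 121) CPM in bulk (log2 fold change 3.95 ± 0.22 (SE), adjusted p = 2.58e-07). The zinc finger factor Egr1 was lower, at 71.4, 26.03, 58.1 and 42.6 CPM against 98.05 to 173 (median 150.5) CPM (log2 fold change -1.55 ± 0.28 (SE), adjusted p = 0.000597). Egr3 was lower still, at 3.13, 1.53, 3.77 and 6.79 against 54.9 to 99.1 (median 68.8) CPM (log2 fold change -4.40 ± 0.41 (SE), adjusted p = 6.89e-06), and Egr2 overlapped between the groups (log2 fold change 0.34 ± 0.27 (SE), adjusted p = 0.273). These genes respond to tissue handling in many cell types, and the sorted cells alone were digested before lysis. What that step contributed was not tested.

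The cytotoxic and effector genes rose as a block. Of 27 members, 24 passed the filter on low counts and all 24 were higher, 21 of them by over 3 on the log2 scale, with a median of 6.90. Gzmd, Gzme and Gzmg did not pass it, with 0, 33 and 0 counts over the sorted libraries and 21, 20 and 2 counts over the bulk tumours, and as near-identical copies their counts are uncertain. Since low members could pass through the sorted libraries alone, the count over tested members is a description. Promoter sequences are shown here for the killing genes Gzmb and Nkg7 and for Cxcr6 and Tcf7, which stand for residency and for stem-like cells below. They are the 250 bases before the annotated RefSeq start on GRCm38.p6, 5′ to 3′ on the gene's strand, with capitals at matches on either strand to the cores TGTGGT (RUNX), CCGGAAGT (ETS), TCACACCT (T-box) and GGGACTTTC (NF-kB).
Gzmb (chr14:56262335-56262584, minus strand): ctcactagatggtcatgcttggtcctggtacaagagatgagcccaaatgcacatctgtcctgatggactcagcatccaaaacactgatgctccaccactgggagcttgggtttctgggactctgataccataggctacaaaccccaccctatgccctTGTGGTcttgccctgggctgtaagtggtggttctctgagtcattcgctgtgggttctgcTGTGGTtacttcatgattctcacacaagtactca
Nkg7 (chr7:43436888-43437137, plus strand): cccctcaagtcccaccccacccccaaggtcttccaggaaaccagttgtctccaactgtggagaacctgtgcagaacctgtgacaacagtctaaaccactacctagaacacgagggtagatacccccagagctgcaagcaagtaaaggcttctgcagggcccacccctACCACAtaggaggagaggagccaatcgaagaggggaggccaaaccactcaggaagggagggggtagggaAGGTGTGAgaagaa
Cxcr6 (chr9:123806227-123806476, plus strand): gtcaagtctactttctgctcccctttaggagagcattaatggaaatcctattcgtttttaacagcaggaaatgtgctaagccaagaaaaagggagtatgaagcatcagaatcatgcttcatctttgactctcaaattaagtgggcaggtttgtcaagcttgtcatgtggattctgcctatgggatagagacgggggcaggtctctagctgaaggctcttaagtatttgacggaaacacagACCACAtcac
Tcf7 (chr11:52282596-52282845, minus strand): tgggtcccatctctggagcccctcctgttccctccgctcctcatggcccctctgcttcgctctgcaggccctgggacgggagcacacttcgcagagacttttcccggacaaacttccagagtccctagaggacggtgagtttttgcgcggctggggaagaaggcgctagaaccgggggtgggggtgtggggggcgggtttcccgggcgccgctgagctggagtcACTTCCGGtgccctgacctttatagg
The Gzmb window holds 2 RUNX cores, that of Nkg7 1 RUNX core and 1 T-box site, that of Cxcr6 1 RUNX core and that of Tcf7 1 ETS core. Among all 32851 windows of this length, 14% hold the RUNX core, 2.88% the ETS core, 1.12% the T-box site and 0.289% the NF-kB site. For Gzmb, Nkg7, Cxcr6 and Tcf7, any annotated start whose window held no match was left out. That each window shown holds a match was therefore fixed by this choice and cannot be set against these shares. Only 149 of the 205 genes in the T cell lists had an entry, under 80%, so the shares over the lists are void and are not given. A match is a run of letters and says nothing of binding.

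Gzmk, a granzyme of early effector memory cells, read 153, 115, 12.9 and 72.97 CPM in the sorted libraries and from 0 to 0.0618 (median 0.0117) CPM in bulk, where the 6 tumours held 8 counts together (log2 fold change 11.45 ± 0.80 (SE), adjusted p = 1.39e-06). Sorted replicate 3 was the lowest for Gzmk. Fasl, the death ligand, read 585, 475, 771 and 620.2 and from 0.0834 to 0.380 (median 0.219) CPM (log2 fold change 11.42 ± 0.41 (SE), adjusted p = 3.07e-08). Ifng (chr10:118441046-118445892), the cytokine that raises antigen presentation in tumours, read 372, 217, 509 and 415 and from 0.0274 to 0.584 (median 0.0986) CPM (log2 fold change 10.77 ± 0.48 (SE), adjusted p = 9.22e-08). For all 3 genes every sorted library was above every tumour. Gzmb (chr14:56258838-56262260), the granzyme that triggers target cell death, read 303, 103, 372 and 525 CPM after sorting, lowest in replicate 2, against 0.600 to 3.27 (median 2.32) CPM in bulk (log2 fold change 7.09 ± 0.57 (SE), adjusted p = 3.56e-06). Nkg7, a protein of cytotoxic granules, read 2262, 1279.6, 2284 and 1984 CPM after sorting and from 0.320 to 2.69 (median 1.38) CPM in bulk (log2 fold change 10.31 ± 0.50 (SE), adjusted p = 1.34e-07). Lowest in the list were Gzmm, at 2.72, 4.37, 1.42 and 1.19 against 0.440 to 0.668 (median 0.582) CPM (log2 fold change 2.04 ± 0.43 (SE), adjusted p = 0.00169), and Gzmc, at 22.2, 16.3, 15.4 and 23.4 against 3.08 to 8.25 (median 4.51) CPM (log2 fold change 1.91 ± 0.31 (SE), adjusted p = 0.000292). Per length, Ccl5 (3981 ± 834 TPM) and Nkg7 (3297 ± 590.3 TPM) were the most abundant members in the sorted cells, Gzmb stood at 265 ± 130.3 TPM and Gzma at 164 ± 62.6 TPM (mean ± SD, n = 4).

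**Figure D2:**
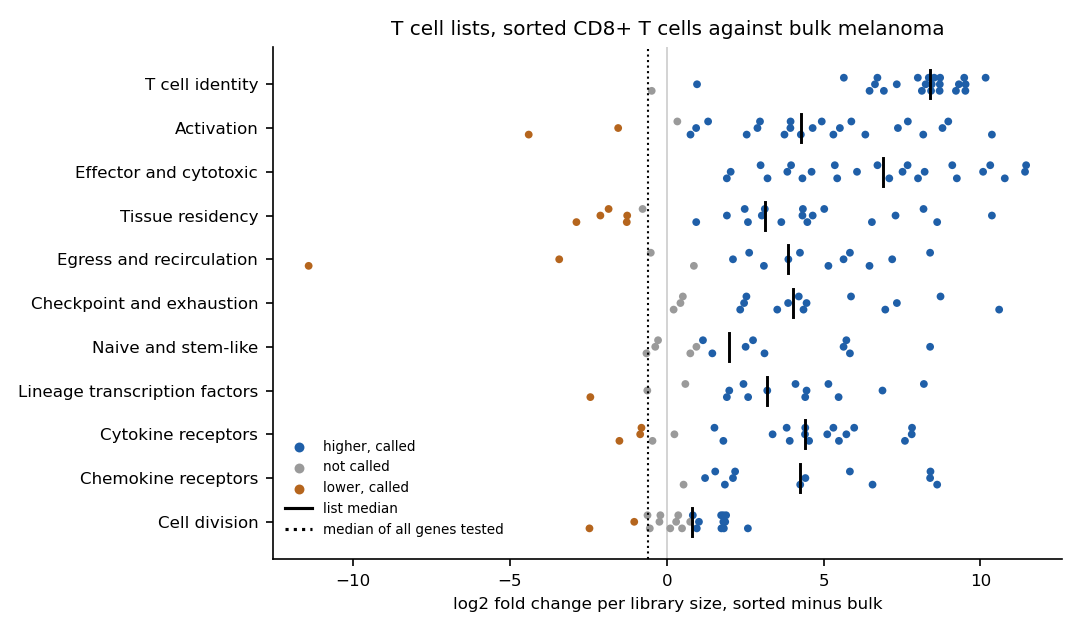
Log2 fold change of each tested member of the 11 T cell lists on the horizontal axis, sorted minus bulk and scaled by library size, with blue for higher, brown for lower and grey for not called, black bars at list medians and a dotted line at the median of all genes (-0.59). Identity (8.39) and cytotoxic (6.90) genes have the highest medians, and cell division (0.79) lies nearest to the dotted line.

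Residency genes held members in both directions. In the fit, 17 of 23 residency genes were higher and 5 lower, with a median of 3.12. Cxcr6, a chemokine receptor that keeps CD8+ T cells in tumours and skin, read 1064, 825, 1416 and 1151 CPM in sorted cells and from 1.87 to 3.61 (median 2.60) CPM in bulk (log2 fold change 8.62 ± 0.22 (SE), adjusted p = 1.58e-08). Rgs1, a regulator that damps chemokine signalling, read 1329, 809, 2181 and 2452 and from 2.82 to 11.2 (median 4.55) CPM (log2 fold change 8.18 ± 0.54 (SE), adjusted p = 9.37e-07). Itgae (chr11:73090583-73147446), which encodes CD103 and binds E-cadherin on epithelium, read 717, 408, 1478 and 1107 and from 6.72 to 14.6 (median 7.28) CPM (log2 fold change 6.54 ± 0.39 (SE), adjusted p = 4.54e-07). These genes did not overlap between the groups, and replicates 3 and 4 were above replicates 1 and 2 for each of them. Zfp683, the residency factor Hobit, was scarce, at 1.42, 3.11, 3.10 and 3.03 CPM in sorted cells and from 0.165 to 0.459 (median 0.284) CPM in bulk (log2 fold change 3.12 ± 0.43 (SE), adjusted p = 0.000104).

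The residency members that fell were 5. Itga1, the CD49a chain that binds collagen, read 64.6, 50.00, 231 and 160.3 CPM in sorted cells against 341 to 579.6 (median 424) CPM in bulk (log2 fold change -2.12 ± 0.42 (SE), adjusted p = 0.00104). P2rx7, a receptor for extracellular ATP, read 10.2, 16.5, 0.251 and 17.6 CPM, with the low value in replicate 3, against 53.7 to 106 (median 85.1) CPM (log2 fold change -2.88 ± 0.80 (SE), adjusted p = 0.00809). Prdm1, the factor Blimp-1, read 8.63, 8.11, 8.999 and 9.36 and from 23.8 to 46.2 (median 27.3) CPM (log2 fold change -1.86 ± 0.26 (SE), adjusted p = 9.89e-05). Ahr (log2 fold change -1.28) and Hpgds (-1.26) were lower as well, and neither was called with an offset for transcript length (-0.69 and -0.27). Itga1 is also made by smooth muscle and stroma, Prdm1 by keratinocytes and Ahr by epidermis. Chn2 (log2 fold change -0.77 ± 0.34 (SE), adjusted p = 0.0594) was not called, but was called lower without sorted replicate 1 (-1.02, adjusted p = 0.0371) or 4 (-0.89, adjusted p = 0.0498) or bulk replicate 6 (-0.85, adjusted p = 0.0496).

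Genes of egress and recirculation did not move opposite to residency. In the fit, 11 of 15 egress genes were higher and 2 lower, with a median of 3.87. Ccr7, which leads cells to lymph nodes, read 1666, 1215, 924 and 1265 CPM after sorting and from 2.52 to 5.74 (median 3.71) CPM in bulk (log2 fold change 8.39 ± 0.31 (SE), adjusted p = 3.41e-08). S1pr4 read 127, 118, 198 and 221 and from 0.834 to 1.45 (median 1.04) CPM (log2 fold change 7.19 ± 0.25 (SE), adjusted p = 2.64e-08), and S1pr1 (chr3:115710433-115715072), the receptor that draws cells out of tissue, read 170.3, 176, 77.9 and 219.8 and from 14.7 to 22.5 (median 19.2) CPM (log2 fold change 3.10 ± 0.27 (SE), adjusted p = 4.58e-06). Sorted replicate 3 was the lowest for Ccr7 and S1pr1. Ly6c2, a surface protein of memory T cells and monocytes, read 262, 192, 28.5 and 165 against 0.960 to 2.50 (median 1.88) CPM (log2 fold change 6.46 ± 0.51 (SE), adjusted p = 2.81e-06). Klf2 (chr8:72319033-72321656), the factor that turns on S1pr1, overlapped at 15.8, 20.9, 14.7 and 28.1 and from 6.64 to 17.7 (median 7.77) CPM (log2 fold change 0.86 ± 0.38 (SE), adjusted p = 0.0583), as did Itga4 (log2 fold change -0.51 ± 0.37 (SE), adjusted p = 0.229). Klf2 was called higher without sorted replicate 3 (0.99, adjusted p = 0.0429), bulk replicate 3 (1.11, adjusted p = 0.0367) or bulk replicate 5 (1.10, adjusted p = 0.0147). Klf3 was lower, at 23.04, 23.5, 4.98 and 14.8 against 117 to 237 (median 179) CPM (log2 fold change -3.43 ± 0.34 (SE), adjusted p = 1.2e-05). S1pr5, carried by circulating effector and NK cells, had no count in any sorted library and from 6.88 to 11.8 (median 9.47) CPM in bulk, so it was at least 259-fold lower against a floor of 3 counts over the sorted group.

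Beside Ly6c2 and Ccr9 stand markers of dendritic and B cells. Siglech, a lectin of plasmacytoid dendritic cells, read 235, 445, 49.5 and 389.6 CPM in sorted replicates 1 to 4, and Ighm, the immunoglobulin mu chain, 348, 553, 84.4 and 358 CPM. Ly6c2 (262, 192, 28.5 and 165) and Ccr9 (73.7, 114, 15.6 and 97.3 CPM) were likewise lowest in replicate 3. The summed level of the 8 dendritic markers was 891, 1120.1, 327 and 1487 CPM after sorting and from 243 to 385 (median 254) CPM in bulk, and 6 of the 8 were higher, none lower. What these markers contribute to the egress genes was not tested.

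Inhibitory receptors were high in the sorted cells. In all, 13 of 16 checkpoint and exhaustion genes were higher and none lower, with a median of 4.04. Pdcd1 (chr1:94038305-94052553), encoding PD-1, read 1144, 803, 1567 and 1156 CPM in sorted cells and from 0.167 to 1.14 (median 0.716) CPM in bulk (log2 fold change 10.59 ± 0.48 (SE), adjusted p = 9.48e-08). Tigit read 513, 331, 437 and 498 and from 0.440 to 1.71 (median 1.01) CPM (log2 fold change 8.73 ± 0.33 (SE), adjusted p = 3.93e-08). Ctla4 read 487, 407, 465 and 477 and from 1.71 to 5.97 (median 2.13) CPM (log2 fold change 7.33 ± 0.41 (SE), adjusted p = 3.35e-07). The sorted values of these inhibitory receptors varied by less than 2-fold among the 4 libraries, and none overlapped a bulk value. Tox, the transcription factor of exhausted cells, read 241, 148, 147 and 114 and from 5.77 to 9.74 (median 7.09) CPM (log2 fold change 4.46 ± 0.26 (SE), adjusted p = 3.7e-07). Havcr2 (TIM-3) was higher by 4.21 ± 0.33 and Lag3 by 3.52 ± 0.37 (log2, SE). Entpd1 (log2 fold change 0.51 ± 0.38 (SE), adjusted p = 0.242), the ectoenzyme CD39, Ptger4 (log2 fold change 0.43 ± 0.17 (SE), adjusted p = 0.0398) and Tox2 (log2 fold change 0.22 ± 0.72 (SE), adjusted p = 0.793) were not called and overlapped between the groups. Without sorted replicate 3, Entpd1 was called higher (0.83, adjusted p = 0.00385).

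Stem-like and naive genes had a lower median than the lists above. Cxcr5 held 224 sorted and 14 bulk counts and did not pass the filter. Of the other members, 9 of 14 were higher and none lower, and the median was 1.98. Tcf7 (chr11:52252371-52283014), encoding TCF-1, which keeps memory cells able to renew, read 297, 279.7, 222 and 254 CPM after sorting and from 22.7 to 34.7 (median 32.3) CPM in bulk (log2 fold change 3.11 ± 0.15 (SE), adjusted p = 1.34e-07). Il7r, the receptor for the survival cytokine IL-7, read 485, 535, 743 and 1123 and from 5.49 to 21.1 (median 11.9) CPM (log2 fold change 5.72 ± 0.41 (SE), adjusted p = 1.45e-06). Members not called were Myb (log2 fold change 0.94 ± 0.40 (SE), adjusted p = 0.0521), Bach2 (log2 fold change 0.75 ± 0.21 (SE), adjusted p = 0.00788), Dapl1 (log2 fold change -0.28 ± 0.35 (SE), adjusted p = 0.474), Bcl6 (log2 fold change -0.37 ± 0.19 (SE), adjusted p = 0.0947) and Id3 (log2 fold change -0.65 ± 0.34 (SE), adjusted p = 0.107). Bach2 missed the fold threshold while its groups did not overlap, and the other 4 overlapped. Without sorted replicate 1, Id3 was called lower (-1.19, adjusted p = 0.00571), so that 1 stem-like member was lower. Myb was called higher without sorted replicate 3 (1.17, adjusted p = 0.0212) or bulk replicate 4 (1.23, adjusted p = 0.0142). Bach2 was called higher without sorted replicate 1 or 3 or bulk replicate 2, 4 or 5 (0.77 to 0.86).

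Among lineage transcription factors, 12 of 15 were higher and Maf was lower. Stat4, which carries the IL-12 signal, read 509, 379, 416 and 503 CPM against 0.795 to 2.64 (median 1.45) CPM (log2 fold change 8.19 ± 0.36 (SE), adjusted p = 7.7e-08). Ikzf3 read 285, 221, 472 and 409 against 1.04 to 4.58 (median 2.68) CPM (log2 fold change 6.88 ± 0.41 (SE), adjusted p = 4.44e-07), and Tbx21, the type 1 factor T-bet, 21.2, 21.2, 67.2 and 30.3 against 0.160 to 0.865 (median 0.808) CPM (log2 fold change 5.48 ± 0.44 (SE), adjusted p = 2.82e-06). Eomes was uneven, at 44.5, 21.97, 0.293 and 7.57 CPM in the sorted libraries, and the value of replicate 3 lay within the bulk range, from 0.209 to 0.864 (median 0.317) CPM (log2 fold change 5.15 ± 0.83 (SE), adjusted p = 0.000297). Maf read 44.4, 41.4, 12.4 and 25.4 and from 130.4 to 198 (median 173) CPM (log2 fold change -2.44 ± 0.33 (SE), adjusted p = 9.76e-05). Foxo1 (log2 fold change 0.59 ± 0.20 (SE), adjusted p = 0.0199) missed the fold threshold.

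Type 17 genes were present in the sort. Il17f read 16.96, 62.6, 11.05 and 10.1 CPM, highest in replicate 2, against 0 to 0.152 (median 0.0817) CPM in bulk (log2 fold change 8.11 ± 0.75 (SE), adjusted p = 6.94e-06), and Il23r, which sustains IL-17-producing cells, 4.25, 1.74, 1.30 and 4.08 against 0.0274 to 0.479 (median 0.160) CPM (log2 fold change 3.92 ± 0.84 (SE), adjusted p = 0.00174). The receptor genes of gamma-delta T cells, which are a common source of IL-17 in skin, were higher in the sort as well: Trdc read 23.8, 8.17, 17.2 and 26.7 against 1.64 to 2.81 (median 1.89) CPM and Tcrg-C2 95.01, 42.8, 164 and 146 against 0.709 to 1.28 (median 0.960) CPM. Of the 6 gamma-delta markers, 5 were higher and 1 lower. The lower one was Sox13, at 0, 0, 0 and 4.36 CPM against 39.5 to 65.5 CPM in bulk. Per CD3 all 6 were lower, as were 96% of all genes tested. The part of gamma-delta T cells in the type 17 values was not tested.

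Cytokine and chemokine receptors followed the T cell genes. In all, 16 of 21 cytokine receptors were higher and 3 lower (median 4.40). Il2rg, the common gamma chain shared by the IL-2 receptor family, read 4378, 3177, 5104 and 4045 CPM in sorted cells and from 12.01 to 21.2 (median 19.2) CPM in bulk (log2 fold change 7.82 ± 0.23 (SE), adjusted p = 1.86e-08). Il21r read 796, 544, 1190.1 and 1008 and from 2.92 to 4.49 (median 3.59) CPM (log2 fold change 7.81 ± 0.25 (SE), adjusted p = 2.01e-08), and Il2rb, the signalling chain for IL-2 and IL-15, 1441, 928, 2048 and 1975 and from 4.16 to 10.3 (median 7.97) CPM (log2 fold change 7.59 ± 0.30 (SE), adjusted p = 4.42e-08). Lower were Il1r1 (log2 fold change -1.51 ± 0.24 (SE), adjusted p = 0.000256), Tgfbr2 (log2 fold change -0.85 ± 0.20 (SE), adjusted p = 0.00343) and Il6ra (log2 fold change -0.81 ± 0.16 (SE), adjusted p = 0.00106), receptors that many tissue cells share. Tgfbr2 missed the fold threshold without sorted replicate 2 (-0.74), and Il6ra without sorted replicate 3 (-0.71) or bulk replicate 4 (-0.74), and both under upper quartile scaling (-0.60 and -0.56). Ifnar2 (log2 fold change 0.24 ± 0.22 (SE), adjusted p = 0.323) and Il15ra (log2 fold change -0.46 ± 0.27 (SE), adjusted p = 0.15) were not called. All but 1 of the 13 chemokine receptors were higher, with a median of 4.25. Ccr8, a receptor of skin-homing T cells, read 159, 97.3, 319 and 349.7 against 0.357 to 0.834 (median 0.551) CPM (log2 fold change 8.41 ± 0.27 (SE), adjusted p = 2.01e-08), higher in replicates 3 and 4. Ccr2 read 180.5, 135, 37.04 and 92.1 against 39.97 to 61.1 (median 46.05) CPM with overlap (log2 fold change 1.22 ± 0.27 (SE), adjusted p = 0.00233).

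Genes of the cell cycle had the lowest median of the T cell lists, 0.79. In the fit, 11 of 22 division genes were higher and 2 lower, against a background of 27.6% higher and 43.1% lower, and none rose by over 3 on the log2 scale. The 11 were Rrm2, Mcm2, Mcm3, Mcm4, Mcm5, Mcm7, Pcna and Tyms, which serve DNA synthesis, with Stmn1, Top2a and Ccnb2. Top2a missed the fold threshold without sorted replicate 1 (0.68), and Ccnb2 without sorted replicate 2 (0.72). Rrm2, a subunit of ribonucleotide reductase, read 355, 159, 262 and 150.3 CPM after sorting and from 24.4 to 49.4 (median 40.7) CPM in bulk (log2 fold change 2.58 ± 0.29 (SE), adjusted p = 2.73e-05). Mcm3 read 175, 138, 109 and 114 and from 28.2 to 43.96 (median 34.6) CPM (log2 fold change 1.89 ± 0.18 (SE), adjusted p = 7.82e-06), and Pcna 400.4, 218, 296 and 252 and from 68.9 to 86.8 (median 84.1) CPM (log2 fold change 1.86 ± 0.18 (SE), adjusted p = 8.31e-06). The other members were not called or were lower. Mki67 read 169, 119, 87.1 and 66.96 and from 50.3 to 209 (median 122) CPM (log2 fold change -0.24 ± 0.36 (SE), adjusted p = 0.56), Ccna2 was lower at 18.6, 8.17, 8.08 and 5.003 against 38.8 to 67.05 (median 56.1) CPM (log2 fold change -2.47 ± 0.35 (SE), adjusted p = 0.000121), and Plk1 was lower (log2 fold change -1.04 ± 0.25 (SE), adjusted p = 0.00389). Cdk1, Ccnb1, Cdc20, Birc5, Aurkb, Bub1, Tpx2 and Mcm6 were not called, with log2 fold changes of -0.54, -0.21, -0.62, 0.49, 0.36, 0.30, 0.11 and 0.75. The sorted values of Mcm6 lay above all bulk values and its change just missed the fold threshold. Among other settings, it was called higher under DESeq2 (0.77), without sex as a term (0.84) and without sorted replicate 1 (0.90) or bulk replicate 1 (0.80) or 6 (0.75). Cdk1 was called lower without sorted replicate 1 (-0.87, adjusted p = 0.00237). Replicate 1 was the highest sorted library for Rrm2, Pcna and Mki67.

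A second fit asked which T cell genes the bulk tumours hold in other proportions to CD3. Library size was replaced by the summed counts of Cd3d, Cd3e and Cd3g, which were 30470 to 62311 per sorted library and only 104 to 881 per bulk tumour, or 1605 to 2608 and 4.09 to 10.9 CPM. On this scale nearly every gene is lower in the sort: 18103 genes were lower (96%) and 121 higher (0.641%). Of the 121, 86 had no count in any bulk tumour, 25 were receptor V genes and 22 were protein coding, 12 of these with bulk counts. A gene of T cells alone, present to the same extent in all T cells, would lie near 0 on this scale.

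Most identity genes were not called on this scale, and a few T cell genes lay above 0, while more members of the other lists lay below it. Of 24 effector genes 5 were higher and 11 lower (median -1.44), and of 25 activation genes 1 was higher and 19 lower (median -4.20). Of 23 residency genes 1 was higher and 19 lower, and of 16 checkpoint genes 1 was higher and 13 lower. Among all genes tested, 96% were lower. Of the 24 identity genes, 16 were not called per CD3, 7 were lower and Cd6 was higher (log2 fold change 1.71 ± 0.48 (SE), adjusted p = 0.00225). The 16 include Cd3d, Cd3e and Cd3g, whose sum is the reference. Their values near 0 follow largely from the scaling and are no result. Trac, the constant region of the alpha chain, was at -0.07 ± 0.48, adjusted p = 0.888. Higher per CD3 in the T cell lists were 8 genes, Gzmk (3.52 ± 0.97, adjusted p = 0.00184), Fasl (3.001 ± 0.70, adjusted p = 0.000439), Ifng (2.44 ± 0.72, adjusted p = 0.00309), Pdcd1 (2.30 ± 0.60, adjusted p = 0.00119), Cd69 (1.90 ± 0.57, adjusted p = 0.00371), Klrc2 (1.82 ± 0.78, adjusted p = 0.0329), Nkg7 (1.73 ± 0.57, adjusted p = 0.007) and Cd6. With Cd8a and Cd8b1 as the reference for scaling, all 8 were again higher and Nkg7 missed the threshold (1.41, adjusted p = 0.051 by edgeR's quasi-likelihood test). With the receptor constant regions (Trac, Trbc1 and Trbc2) as the reference, 264 genes were higher. Ccr7 (1.22) was among them, so it has no direction that holds across references. Trac read 1.203 there, but it is part of that reference, so this value says nothing of its direction. On that reference 14 identity genes were higher and 3 lower, counted over a list that holds the reference genes. Klrc2, which has close paralogs, lost its call without sorted replicate 1 (1.51, adjusted p = 0.11), bulk replicate 5 (1.66, adjusted p = 0.0777) or bulk replicate 6 (1.57, adjusted p = 0.0586).

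Below 0 in the identity list were Trbc1 (-2.03), Trbc2 (-1.90), Cd5 (-1.55), Cd247 (-1.80), Ptprcap (-2.80), Thy1 (-7.61) and Bcl11b (-9.06). Trbc1 and Trbc2 are near-identical and their split is uncertain. Cd5 lost its call without sorted replicate 3 (-1.30, adjusted p = 0.0927), and sorted replicate 3 had the lowest level of Cd5 and Trbc1 (408, 238, 133 and 276 CPM and 760.0, 715, 204 and 450.0 CPM). Among residency genes, Cxcr6 (0.11 ± 0.51, adjusted p = 0.832) and Rgs1 (-0.34 ± 0.54, adjusted p = 0.543) were not called per CD3 and Itgae was lower (-1.96 ± 0.51, adjusted p = 0.00111). With the receptor constant regions as the reference, Cxcr6 was called higher (1.403, adjusted p = 0.000583), as was Tigit (1.49, adjusted p = 0.00668), and Itgae lost its call (-0.72, adjusted p = 0.0462). For Ccr7 (-0.10 ± 0.50, adjusted p = 0.847), Tigit (0.10 ± 0.62, adjusted p = 0.871), Ctla4 (adjusted p = 0.0872), Gzmb (-1.34 ± 0.69, adjusted p = 0.0697), Cxcr6 and Ccr8 (-0.14 ± 0.64, adjusted p = 0.834) the difference per CD3 did not pass the test, though Gzmb passed it without sorted replicate 4 (-1.60, adjusted p = 0.0489) or bulk replicate 4 (-1.56, adjusted p = 0.0475). S1pr1 (-5.45 ± 0.60, adjusted p = 3.94e-08), also made by endothelium, and Tcf7 (-5.43 ± 0.51, adjusted p = 4.09e-09) were lower per CD3. Bulk CD3 counts were near 100 in 2 tumours, so the counting error of the reference itself is large there.

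**Figure D3:**
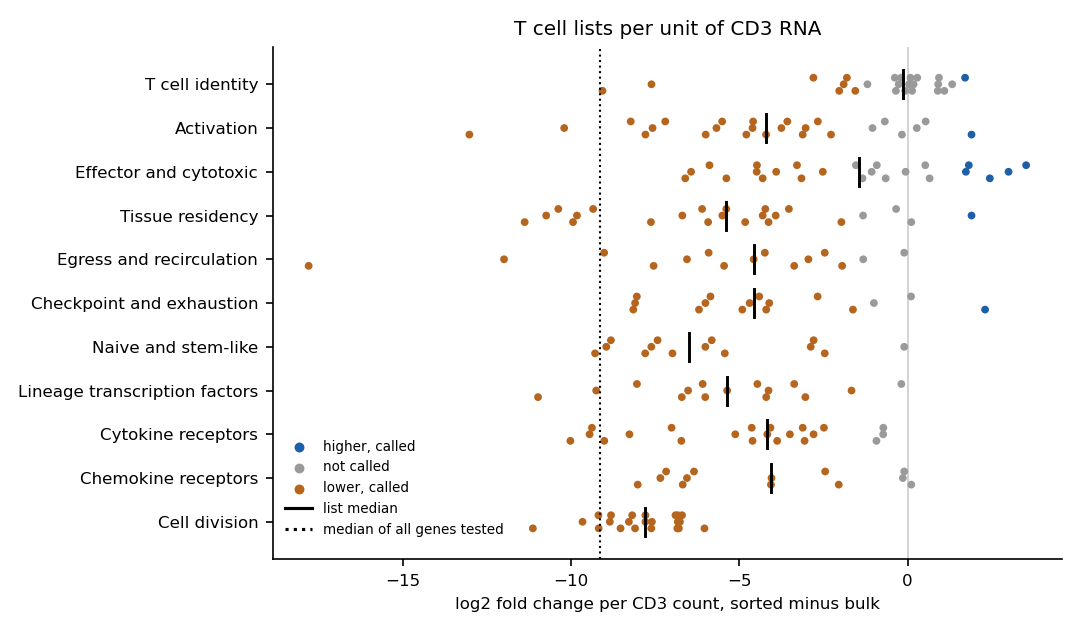
Log2 fold change of the same members per unit of CD3 RNA on the horizontal axis, sorted minus bulk, with the colours and bars of the plot per library size. Identity genes, which include the CD3 genes of the reference, centre on -0.13, and 8 genes, led by Gzmk at 3.52, are called higher.

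Other cell types were depleted to different degrees. Every tested keratinocyte, skeletal muscle, neural crest, fibroblast, endothelial and red cell marker was lower in the sort. Krt14 read 9.51, 0, 1.005 and 1.70 CPM after sorting against 2102 to 4563 (median 2261) CPM in bulk, and the haemoglobin gene Hba-a1, which has a near-identical copy, 0.0591, 0, 0 and 0.229 against 23.7 to 321 (median 40.4) CPM. Genes with no sorted count led the list of lower protein-coding genes. Krt1 was at least 41305-fold lower, Krt6a 33702-fold, Myh4 16525-fold, Sprr1a 12440.3-fold, Krt77 11546-fold and Klk7 10632-fold, against the floor of 3 counts over the sorted group. Most of these encode proteins of the cornified epidermis, and Myh4 encodes a fast muscle myosin.

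Residual stromal and tumour RNA was uneven among the sorted libraries. The summed level of 8 melanocyte genes was 390.1, 15.2, 20.6 and 21.98 CPM in sorted replicates 1 to 4 and from 751 to 2978 (median 1399) CPM in bulk. For 8 fibroblast genes it was 1764, 2.21, 527 and 1018 CPM, against 14405 to 23023 (median 17778) CPM. For 10 monocyte and macrophage genes it was 201, 112, 57.9 and 566 CPM, against 608 to 1273 (median 1083) CPM. Replicate 1 held the most melanocyte and fibroblast RNA, replicate 4 the most macrophage RNA, and replicate 2 the least fibroblast RNA. Dct, an enzyme of melanin synthesis, read 144, 0.580, 6.95 and 4.13 CPM (log2 fold change -4.08 ± 1.44 (SE), adjusted p = 0.0256), Mlana 49.5, 0.0527, 2.97 and 1.51 CPM (log2 fold change -2.15 ± 1.42 (SE), adjusted p = 0.19) and Col1a1 622, 2.11, 267 and 396 CPM (log2 fold change -3.63 ± 1.07 (SE), adjusted p = 0.0111). Dct lost its call without sorted replicate 3 (-3.73, adjusted p = 0.0678), sorted replicate 4 (-3.63, adjusted p = 0.0672) or bulk replicate 5 (-3.83, adjusted p = 0.052), and Mlana was called without sorted replicate 1 (-5.03, adjusted p = 0.0202). With replicates 1 and 4 left out together, 5133 genes were higher and 8833 lower per library, and 77 in place of 121 were higher per CD3.

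Some markers of other immune cells were higher in the sort. The 6 B cell genes summed to 355, 561, 88.9 and 373 CPM against 15.99 to 36.8 (median 26.5) CPM, nearly all of it Ighm, while Ms4a1 had 14 counts over the sorted libraries and 39 over the bulk tumours. Of the NK cell markers, Klrb1c read 4.25, 2.002, 3.06 and 3.17 against 0.371 to 1.97 (median 1.29) CPM and lost its call (adjusted p from 0.0509 to 0.113) without sorted replicate 1, 3 or 4 or bulk replicate 2 or 3, Ncr1 overlapped (log2 fold change 1.07 ± 0.88 (SE), adjusted p = 0.288), and the group sum of 177, 56.7, 132 and 126 CPM was mostly Gzma. Flt3, a dendritic progenitor receptor, read 29.01, 61.9, 5.94 and 60.4 against 2.69 to 5.07 (median 3.69) CPM (log2 fold change 3.43 ± 0.54 (SE), adjusted p = 0.000236), and Xcr1, of cross-presenting dendritic cells, 10.5, 13.96, 17.1 and 11.7 against 2.45 to 3.16 (median 2.92) CPM (log2 fold change 2.18 ± 0.24 (SE), adjusted p = 2.17e-05). The mast cell sum was nearly all Kit, at 146, 99.6, 244 and 172 CPM, with Mcpt4 and Cma1 at 0 in all 4 sorted libraries. Foxp3, the factor of regulatory T cells, overlapped (log2 fold change -0.29 ± 0.64 (SE), adjusted p = 0.687), while Cd40lg, the CD40 ligand of activated T cells, was higher (log2 fold change 7.77 ± 0.84 (SE), adjusted p = 2.14e-05).

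**Figure D4:**
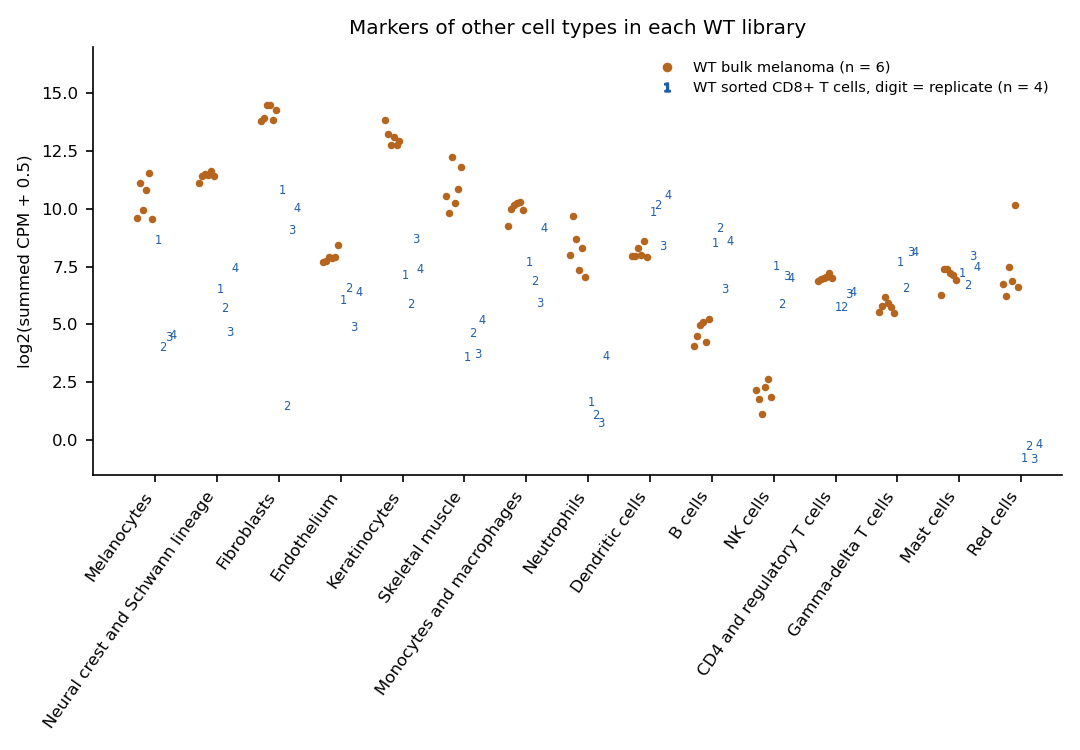
Summed level of 15 marker lists in each WT library as log2(summed CPM + 0.5) on the vertical axis, with brown points for bulk melanomas (n = 6) and blue digits for the sorted replicates (n = 4). Dendritic, B cell, NK cell and gamma-delta sums are higher in most sorted libraries, and the fibroblast sum of replicate 2 (2.21 CPM) lies far below the other 3.

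The sorted libraries also differed in the receptors they carried. Each T cell clone uses 1 V gene for its beta chain, so the shares of counts over the 22 Trbv genes describe how even the population was. These shares were looked at after the values of the V genes had been seen. Trbv13-3 held 69.6% of the 11894 Trbv counts of sorted replicate 3. In replicate 1 the first gene was Trbv15 with 20.03% of 8528 counts, in replicate 2 Trbv15 with 15.1% of 7631 and in replicate 4 Trbv13-3 with 18.6% of 9434. The number of Trbv genes that together held 50% of the counts was 1 in replicate 3 and 4, 5 and 4 in replicates 1, 2 and 4. The alpha chain was uneven in the same library: the Trav3 genes held 82.8% of 25188 Trav counts in replicate 3, against 16.7%, 12.7% and 37.2% in replicates 1, 2 and 4. The Trav3 copies are near-identical, so their counts were summed. The bulk tumours held 3 to 155 Trbv counts each, too few to give shares.

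**Figure D5:**
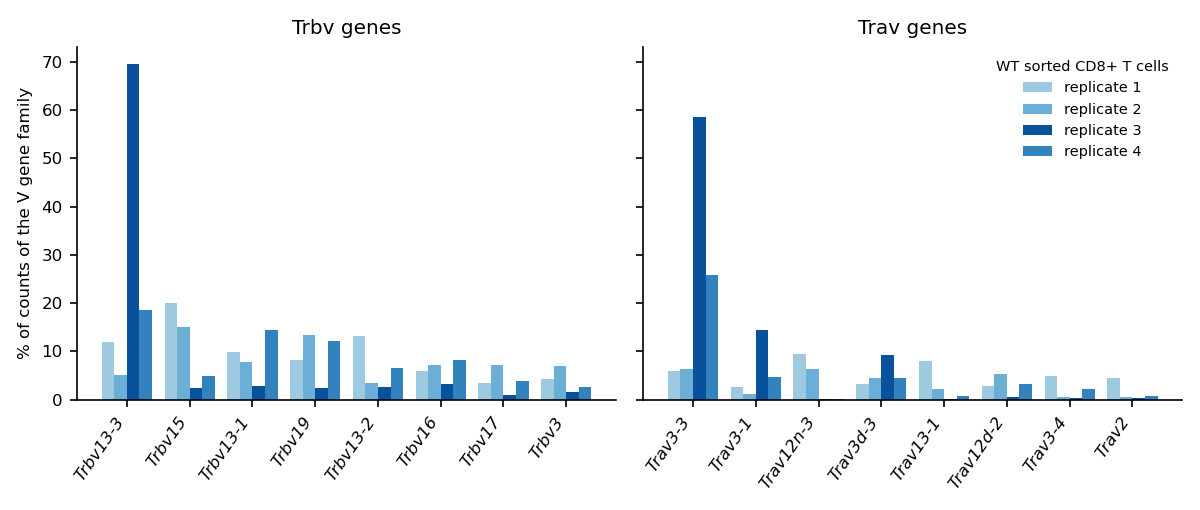
Share of the counts of all Trbv genes (left) and all Trav genes (right) in each of the 4 WT sorted libraries, in percent on the vertical axis, for the 8 genes with the highest share in any of them. Trbv13-3 reaches 69.6% and Trav3-3 58.6% in replicate 3, above every other bar of their family.

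Replicate 3 was also apart in other T cell genes named above. It was the lowest sorted library for Gzmk, Ly6c2, Eomes, P2rx7, Cd5 and Trbc1, and had no Cd4 count, and it was the highest for Itgae, Icos and Pdcd1. Without it, 5246 genes were higher and 8265 lower per library, and 106 were higher per CD3.

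The same contrast was run in dKO mice, with 4 sorted and 6 bulk libraries that share no sample with the WT groups. In dKO, 5023 genes were higher in the sorted cells (26.6%) and 8332 lower (44.1%). Of the WT calls, 4299 higher genes (82.6%) and 7193 lower genes (88.5%) were called in the same direction in dKO, and 17 genes were called in opposite directions. Every WT call among the tested members of the cytotoxic list that was tested in dKO, 23 genes, kept its call there. The log2 fold change in WT and dKO was 8.13 and 9.19 for Cd8a, 10.36 and 10.63 for Cd69, 10.59 and 10.02 for Pdcd1, 6.54 and 6.89 for Itgae and 10.77 and 11.27 for Ifng. The difference between the genotypes was tested in 1 fit of the 20 libraries, and 205 of 20537 genes differed (0.998%). Zfp683 (2.57, adjusted p = 0.0432), Itgb7 (1.56, adjusted p = 0.0178), Ltb (2.66, adjusted p = 0.0478) and Mcm6 (1.19, adjusted p = 0.0211) were members of the T cell lists among them, each with a higher sorted-minus-bulk difference in dKO. Cd69, Pdcd1, Itgae, Ifng and Gzmb did not pass this test.

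Of the macroH2A genes, only H2afy2 was called. H2afy, encoding macroH2A1, read 111, 97.8, 80.4 and 87.4 CPM in WT sorted cells and from 85.9 to 114 (median 91.3) CPM in WT bulk (log2 fold change -0.01 ± 0.14 (SE), adjusted p = 0.963). H2afy2, encoding macroH2A2, read 0.473, 0, 0.0419 and 0.184 and from 7.51 to 12.4 (median 10.3) CPM (log2 fold change -5.88 ± 0.79 (SE), adjusted p = 8.69e-05).

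Among the 6 protein-coding genes with the largest rise, Gzmk, Fasl and Ifng are T cell genes. The other 3, Gm20390, Rpl9-ps6 and Rps27rt, had no count in any bulk tumour and read 104, 78.7, 81.99 and 95.9 CPM, 92.8, 79.7, 67.5 and 96.8 CPM and 103, 63.97, 53.6 and 106 CPM in the sorted libraries, in that order. They were at least 8452-fold, 7887-fold and 7637-fold higher against 3 counts over the bulk group. The latter pair carry the names of ribosomal protein copies, whose counts can be split with a near-identical parent gene, and all 3 values are uncertain. In all, 191 of the higher genes had no bulk count and 1209 of the lower genes no sorted count.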

How the data were processed

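Poly-A RNA was sequenced as single reads. The authors ran Salmon 1.2.1 on GRCm38.p6 transcripts and deposited 1 file per library with estimated counts (not whole), TPM and effective length (a separate length unit, other than counts). Estimated counts were summed per gene with a Gencode GRCm38 annotation that held 99.2% of the transcript identifiers, and rounded. Those without a gene took 0.246 to 0.521% of counts. Scaling was by TMM in edgeR 4.0.16 (R 4.3.3, limma 3.58.1, DESeq2 1.42.0). Genes passed filterByExpr (minimum count 10, minimum total 15). Tests were edgeR's robust quasi-likelihood test with sex as a term and Benjamini-Hochberg adjustment over all genes tested, and every adjusted p in the report comes from it unless another test is named. Genes were called at a log2 fold change beyond 0.75 either way with adjusted p below 0.05. The per-CD3 fit used summed CD3 counts as library size. On simulated data with 18661 genes for this comparison, 39% of genes changed 2-fold and 100% of those changed 4-fold were called. Only 200 genes were changed there, at a dispersion (squared coefficient of variation between libraries) of 0.1. The real data spread more, with a coefficient of variation of 0.477 in the main fit and 0.592 per CD3. These shares therefore do not give the power of the real fits. Intervals and floors cover counting error only.

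Groups came from the labels, which number the libraries within each group, and the study describes each library of a group as an independent tumour. No 2 libraries agreed within sampling noise. Fibroblast libraries and cultured cells were not analysed here, and some items are not reported here. The members and lists were chosen with earlier results of these data known. Named genes are anchors of the study, the 3 highest and 2 lowest members of each T cell list and those not called, the 2 furthest per CD3 in each direction, the 6 protein-coding genes at each end and the first 3 markers of each cell type. Genes named outside this rule, such as Siglech, Ighm, Ccr9, Nkg7, Zfp683, Prdm1, Ahr, Hpgds, Tox, Havcr2, Lag3, Eomes, Nr4a1, Il6ra, Kit, Klrc2, Cd5 and the V genes, were chosen after their values were seen.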

Additional observations from a re-analysis of the deposited data

Results flagged for a closer look

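Of 326 groups of values examined for the genes and summed lists named in the text, 26 held a sample far from the others of its group by Dixon's criterion (7.98%). The criterion gives about 1 in 20 by chance for independent, normally distributed values. Here the values were CPM or shares, summed lists held named genes, and some genes were chosen after their values were seen. The 7.98% therefore cannot be read as an excess over chance.

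Among the sorted libraries, replicate 1 stood apart for the melanocyte genes, with 390.1 CPM summed against 22.0 in the next library, Dct at 143.9 CPM against 6.95 and Mlana at 49.5 against 2.97. The same library was apart for Cdk1 (29.0 CPM) and Tpx2 (52.6 CPM), which are mitotic genes, high for Stmn1 (397 CPM), and low for Zfp683 (1.42 CPM). Replicate 2 was low for the summed cytotoxic genes (5075 CPM, the next 8239) and for Hpgds (6.90 CPM), and high for Il17f (62.6 CPM, the next 16.96). Replicate 3 was high for Bcl11b (63.5 CPM) and for the share of its first Trbv gene (69.6%, the next 20.03%). Replicate 4 was high for Ncr1 (5.74 CPM) and the summed neutrophil genes (11.6 CPM).

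Among the bulk tumours, replicate 2 was the highest for the T cell genes Itgae (14.6 CPM) and Rgs1 (11.2 CPM), and its CD3 level of 9.34 CPM was among the 2 highest. Replicate 1 was high for Krt14 (4563 CPM) and the summed keratinocyte genes (14768 CPM) and low for Ifnar2 (42.4 CPM). Replicate 5 was high for Hba-a1 (321 CPM) and the summed red cell genes (1149 CPM). Replicate 6 was low for the summed activation genes (802 CPM) and high for the summed endothelial genes (349.8 CPM). Tyms in replicate 2 (16.2 CPM), Tox2 in replicate 3 (1.12 CPM) and Plk1 in replicate 4 (26.8 CPM) were also apart.

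The sorted-minus-bulk difference of 6 named genes was larger in dKO than in WT by the interaction term of edgeR's quasi-likelihood test over 20 libraries. On the log2 scale dKO exceeded WT by 2.57 for Zfp683 (adjusted p = 0.0432), 2.66 for Ltb (0.0478), 1.56 for Itgb7 (0.0178) and 1.19 for Mcm6 (0.0211). For the mast cell protease genes Cma1 (12.46, adjusted p = 0.0103) and Mcpt4 (8.34, 0.0451) all 4 WT sorted libraries were at 0, so the fitted differences depend on the prior count and are no bound.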

How the results depend on the processing

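Kit, RNA input, digestion and tissue cannot be told apart here, and the CD3 reference rests on 104 to 881 counts per tumour. Counts of called genes over all genes tested stayed within 1.5 times their main value under the alternatives run, except that the 121 genes higher per CD3 became 264 per T cell receptor constant RNA and 77 with sorted replicates 1 and 4 left out together, an alternative chosen after seeing the data. The cause was not tested. Smaller counts within lists moved more. Lower calls went from 5 to 3 for residency with an offset for transcript length, from 3 to 1 for cytokine receptors under upper quartile factors, protein-coding genes alone or thinning, and, under library totals, from 2 to 4 for cell division, from 1 to 2 for lineage factors and from 0 to 1 for stem-like genes. Without sorted replicate 1, lineage factors also held 2 and stem-like genes 1, and without sorted replicates 1 and 4 both lists held 2. Per T cell receptor constant RNA, identity genes went from 1 to 14 higher and from 7 to 3 lower, and higher calls from 1 to 4 for activation, from 0 to 3 for chemokine receptors, from 1 to 2 for residency and for checkpoint genes, and from 0 to 1 for egress, stem-like genes and lineage factors. The identity list holds the genes of both references, so its counts rest in part on genes scaled by themselves. With 1 replicate left out in turn, 4965 to 5280 genes were higher and 7732 to 8479 lower per library, and 90 to 126 were higher per CD3. The share of higher calls was 39.0% and ran from 34.3% with library totals to 44.4% without the low-count filter. No paired analysis was possible because the labels give no mouse identity that would link sorted and bulk libraries.

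On the scale per library size, log2 fold changes of genes that turned sign under another setting were, by setting, offset for transcript length (Aurkb -0.30, Bub1 -0.090, Ifnar2 -0.49, Itga4 0.84, Thy1 -0.44, Tox2 -0.58), upper quartile factors (Ccnb1 0.034, H2afy 0.24, Mki67 0.0085), voom with group quality weights (Cd4 -0.54, Tox2 -0.47), sorted libraries 1 and 4 left out together (Entpd1 -0.21, Tpx2 -0.15), without bulk batch 2 (Foxp3 0.047, H2afy 0.043), DESeq2 (H2afy 0.0027), RLE factors (H2afy 0.0031), no low-count filter (H2afy 0.079), protein-coding genes alone (H2afy 0.13), bulk batches as terms (H2afy 0.00014), thinned to the lowest total (H2afy 0.098), library totals alone (Tpx2 -0.14). With 1 replicate left out in turn, such genes ranged from -0.59 to 0.0093 for Ccnb1, -0.85 to 0.11 for Foxp3, -0.12 to 0.067 for H2afy, -0.53 to 0.64 for Tox2, -0.19 to 0.21 for Tpx2. On the scale per CD3, log2 fold changes of genes that turned sign under another setting were, by setting, per T cell receptor constant RNA (Ccr7 1.22, Ccr8 1.17, Cd3e 0.84, Cd40lg 0.79, Cd8a 0.91, Ctla4 0.16, Gzma 0.86, Il21r 0.59, Il2rb 0.37, Il2rg 0.59, Rgs1 0.92, Stat4 1.03, Trac 1.203), without sex (Ccr8 0.093, Cd40lg 0.070), per CD8 RNA (Cd3g -0.21, Cxcr6 -0.16, Il17f -0.22, Tigit -0.14), sorted libraries 1 and 4 left out together (Cd40lg 0.071, Trac 0.051). With 1 replicate left out in turn, such genes ranged from -0.27 to 0.15 for Ccr7, -0.41 to 0.12 for Ccr8, -0.54 to 0.23 for Cd40lg, -0.028 to 0.32 for Cxcr6, -1.10 to 0.39 for Il17f, -0.092 to 0.63 for Tigit, -0.24 to 0.15 for Trac. None of the genes that turned sign per library was called under the main setting except Thy1. The summed mast cell level was higher in the sort by CPM and lower by TPM (log2 ratio -1.01). Among all values, 5897 kept direction and side of the threshold, 73 lost a call and 87 gained one. Another 67 turned sign, and 26 counts or summed levels shifted enough to be flagged.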

Other observations

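Of the 12 protein-coding genes with bulk counts that were higher in the sort per CD3, 4 are in no T cell list: Il17a, Ms4a4b, Sh2d2a and Olfr77. Il17a, the IL-17A cytokine, read 23.5, 77.5, 5.52 and 7.30 CPM in the sorted libraries and from 0 to 0.0584 (median 0.0137) CPM in bulk (log2 fold change 10.36 ± 0.61 (SE), adjusted p = 4.12e-07; per CD3 2.71 ± 1.003, adjusted p = 0.0147), and lost its call per CD3 without sorted replicate 2 (1.63, adjusted p = 0.23). Ms4a4b, a membrane protein of T cells, read 198, 208, 155 and 167 and from 0 to 0.642 (median 0.155) CPM (log2 fold change 9.46 ± 0.63 (SE), adjusted p = 1.04e-06; per CD3 1.58 ± 0.74, adjusted p = 0.0462), and lost its call per CD3 without sorted replicate 2, 3 or 4 or bulk replicate 1, 4, 5 or 6 (1.31 to 1.60, adjusted p from 0.0626 to 0.128). Sh2d2a, an adaptor of T cell signalling, read 1616, 1392, 1419 and 1330.0 and from 0.626 to 2.74 (median 1.39) CPM (log2 fold change 9.90 ± 0.46 (SE), adjusted p = 1.11e-07; per CD3 1.62 ± 0.52, adjusted p = 0.0057). With the CD8 chains as the reference, Sh2d2a (1.28, adjusted p = 0.0677) and Ms4a4b (1.16, adjusted p = 0.178) lost their calls. These genes were chosen after their values were seen.

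Uneven receptor use was present in 1 dKO sorted library as well. In dKO replicate 4, Trbv13-3 held 39.4% and Trbv31 24.0% of the Trbv counts and Trav2 39.3% of the Trav counts, whereas in dKO replicates 1, 2 and 3 the first Trbv gene held 11.5%, 11.4% and 14.9%.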
